A study of Rattus norvegicus with 13 samples.

Results

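The genes described are 33 components of the machinery that fills, docks, fuses and recycles synaptic vesicles, measured in the hypothalamus of male rats on diets that differed in the amount and source of fat. They were chosen by gene symbol, from vesicle membrane proteins (Syp, Synpr, Sv2a, Sv2b, Sv2c) and synapsins (Syn1, Syn2) through calcium sensors, SNARE proteins, complexins, active zone proteins and priming factors to transmitter transporters and recycling factors. All 33 were found among the 22093 genes of the array with a single symbol, and all 33 passed the signal filter that left 16033 genes for testing.

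Sprague-Dawley rats, an outbred strain, were put on 1 of 3 diets by random assignment and ate without restriction for 2 months until 14 to 15 weeks of age. The low-fat control diet (LF-CD, 4 arrays) supplied 16% of energy as soybean oil. The high-fat flaxseed oil diet (HF-FD, 4 arrays) and the high-fat safflower oil diet (HF-SD, 5 arrays) each supplied 35%. Flaxseed oil is rich in the omega-3 fat alpha-linolenic acid and safflower oil in the omega-6 fat linoleic acid, and the series asks how a high intake of either acts on the hypothalamus. Fat content and fat source changed together between the control diet and each high-fat diet, so the effect of one cannot be told apart from that of the other there. The high-fat diets differ from each other in fat source at equal fat content. The whole dissected hypothalamus was measured, with neurons, glia and vessels together, and food intake and body weight were not used here.

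At a synapse, transporters load transmitter into vesicles, and vesicles are tethered and primed at the active zone by RIM, Munc13, CAPS, Bassoon and Piccolo. Fusion is driven by the SNARE complex, in which synaptobrevin on the vesicle pairs with syntaxin and SNAP-25 on the plasma membrane. Synaptotagmin triggers it when calcium enters, complexin clamps and assists it, and NSF with its SNAP adaptors takes the complex apart afterwards. In the hypothalamus the same machinery serves GABA and glutamate synapses, and parts of it serve the release of neuropeptides from dense-core vesicles.

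The promoters of Syp, Cadps and Syn1 are shown because these 3 members had the smallest p-values for safflower against low-fat. Each is the 250 bases before the annotated start in the RefSeq annotation of the rat assembly GRCr8, written along the gene's own strand. They lie at chrX:17536450-17536699 (minus strand) for Syp, chr15:14720476-14720725 (plus strand) for Cadps and chrX:3725495-3725744 (plus strand) for Syn1. Capitals mark the motifs found by searching both strands.
Syp: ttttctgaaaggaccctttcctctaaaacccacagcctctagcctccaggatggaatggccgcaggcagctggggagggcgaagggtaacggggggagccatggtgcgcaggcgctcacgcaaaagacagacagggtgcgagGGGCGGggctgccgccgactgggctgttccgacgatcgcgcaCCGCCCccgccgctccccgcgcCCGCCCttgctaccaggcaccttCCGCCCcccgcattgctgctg
Cadps: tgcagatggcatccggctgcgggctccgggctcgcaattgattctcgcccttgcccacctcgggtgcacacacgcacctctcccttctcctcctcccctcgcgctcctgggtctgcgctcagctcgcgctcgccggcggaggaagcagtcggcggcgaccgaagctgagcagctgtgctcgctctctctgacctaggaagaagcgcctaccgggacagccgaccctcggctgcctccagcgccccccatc
Syn1: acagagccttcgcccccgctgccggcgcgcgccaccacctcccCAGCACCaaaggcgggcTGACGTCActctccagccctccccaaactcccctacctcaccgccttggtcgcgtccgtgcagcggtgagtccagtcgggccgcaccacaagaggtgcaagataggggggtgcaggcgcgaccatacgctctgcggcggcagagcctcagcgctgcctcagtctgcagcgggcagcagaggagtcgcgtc
The first searched motif was the GC box, GGGCGG. The core of the cAMP response element was searched as TGACG and the E-box as CACGTG. The last motif was CAGCACC from the left part of the RE1 element. In Syp 4 GC boxes were found, 3 of them on the opposite strand (read as CCGCCC), the nearest starting at position -21 from the start. In Syn1 TGACG was found on both strands, overlapping in the palindrome TGACGTCA, and CAGCACC began at position -207, counted back from the start. None of the 4 motifs was found in the Cadps window.

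Of the 33 members, 31 had a promoter in the RefSeq table, all but Snap25 and Rims2. The GC box was present in 22 of these 31 windows (71.0%) and in 32.4% of all 27457 promoter windows of the same length. TGACG was present in 11 (35.5%, against 19.0% of all windows), CAGCACC in 5 (16.1%, against 5.5%) and CACGTG in 3 (9.7%, against 5.8%). The windows of the members were also richer in G and C, with a median of 66.8% and 22 CpG dinucleotides, against 52.0% and 6 over all windows. These matches describe letters and are no evidence of binding.

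The signals, made with RMA, are log2 values, so a difference of 1 is a doubling of measured signal. Signals of all rows other than controls had array medians from 6.43 to 6.75. Of 17 hypothalamic markers such as Hcrt, Pmch and Oxt, 16 were on the array with a single symbol, and all 16 passed the signal filter. Their mean signals ran from 7.08 (Agrp) to 12.39 (Oxt). Low-fat array 3 had the lowest signal of its diet for 19 of the 33 members, and safflower array 4 for 23. Safflower array 5 had the highest of its diet for 17, flaxseed array 1 for 16 and low-fat array 2 for 15. The mean over the members was 9.83 on low-fat array 3, against 9.91 to 10.10 on the other low-fat arrays, and 10.11 on safflower array 4, against 10.23 to 10.43 on the other safflower arrays. With both left out, 21 members passed the test for safflower against low-fat instead of 17. The share of all genes called without these arrays is not given here.

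**Figure D1:**
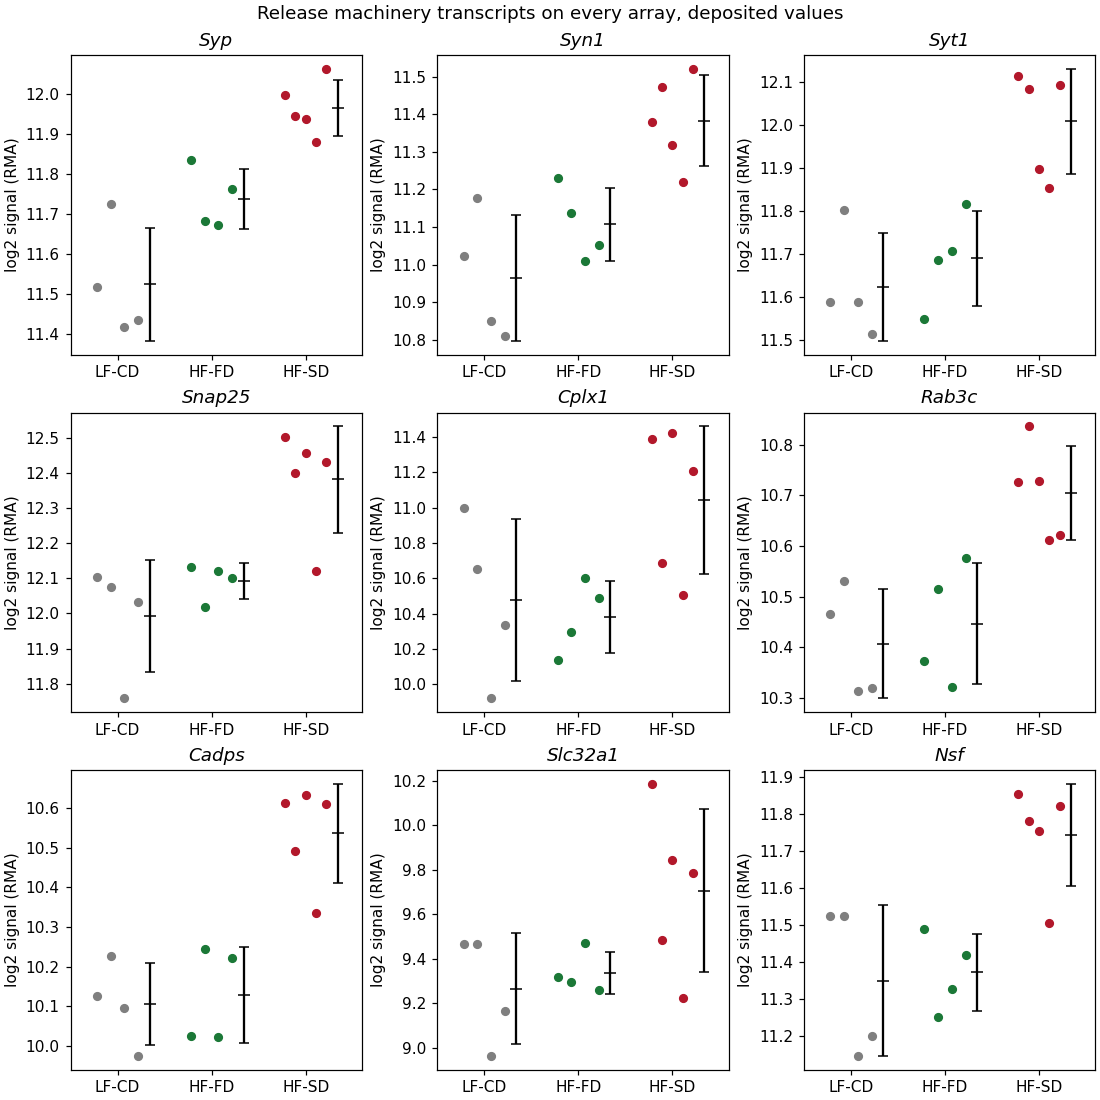
Log2 signal (y axis) of 9 release machinery genes on each of the 13 arrays by diet (grey low-fat, green flaxseed, red safflower; deposited values), with the mean and SD of each diet as a black bar. The safflower arrays lie above all low-fat arrays for Syp, Syn1, Syt1, Snap25, Rab3c and Cadps and overlap them for Cplx1, Slc32a1 and Nsf.

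With the safflower diet, 17 of the 33 release machinery transcripts were higher than with the low-fat diet and none was lower in the deposited values. The 17 were the vesicle proteins Syp and Sv2a, both synapsins, both synaptotagmins, the SNARE protein Snap25, Cplx1, Rab3c, Rims1, Erc2, Cadps, the GABA transporter gene Slc32a1, and Nsf, Napb, Dnm1 and Dnajc5. Their rises ran from 1.14-fold (Erc2) to 1.48-fold (Cplx1), with a median of 1.30-fold. All 33 changes were positive on the log2 scale, as were those of 9750 of the 16033 genes tested and of 3791 of the brightest 4009. The median of the 33 was 0.30, against 0.07 over all genes tested and 0.23 over the brightest 4009. After quantile normalization of all rows 27 of 33 were positive, as were 9344 of all genes tested and 2457 of the brightest 4009. In whole tissue, a change in the number of cells of a type and a change in RNA per cell cannot be told apart.

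The 17 calls are 51.52% of the members, where 22.9% of all genes tested were called higher by the same test (limma, Benjamini-Hochberg adjusted p under 0.05 over 16033 genes). Changes ran with signal level, however. In 10 bins of increasing mean signal, the median log2 change for safflower against low-fat went from -0.21 in the dimmest bin to 0.26 in the brightest. Of the members, 28 lie among the 4009 brightest genes tested (mean signal from 8.89), where 48.1% of genes were called higher. There 16 of the 28 members were called (57.14%), a share close to that background. In the brightest bin 58.7% of genes were called higher, and 14 of the 20 members in it. The log2 change exceeded the median of the gene's own bin for 28 of the 33 members.

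For 10 members every safflower array exceeded every low-fat array (30.3%), against 13.5% of all genes tested. Among the brightest genes the share was 26.5%, and 9 of the 28 members there were separated (32.14%), close to that background. The 10 were Syp, Sv2a, Syn1, Syt1, Syt4, Snap25, Rab3c, Rims1, Erc2 and Cadps. No member lay wholly below.

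**Figure D2:**
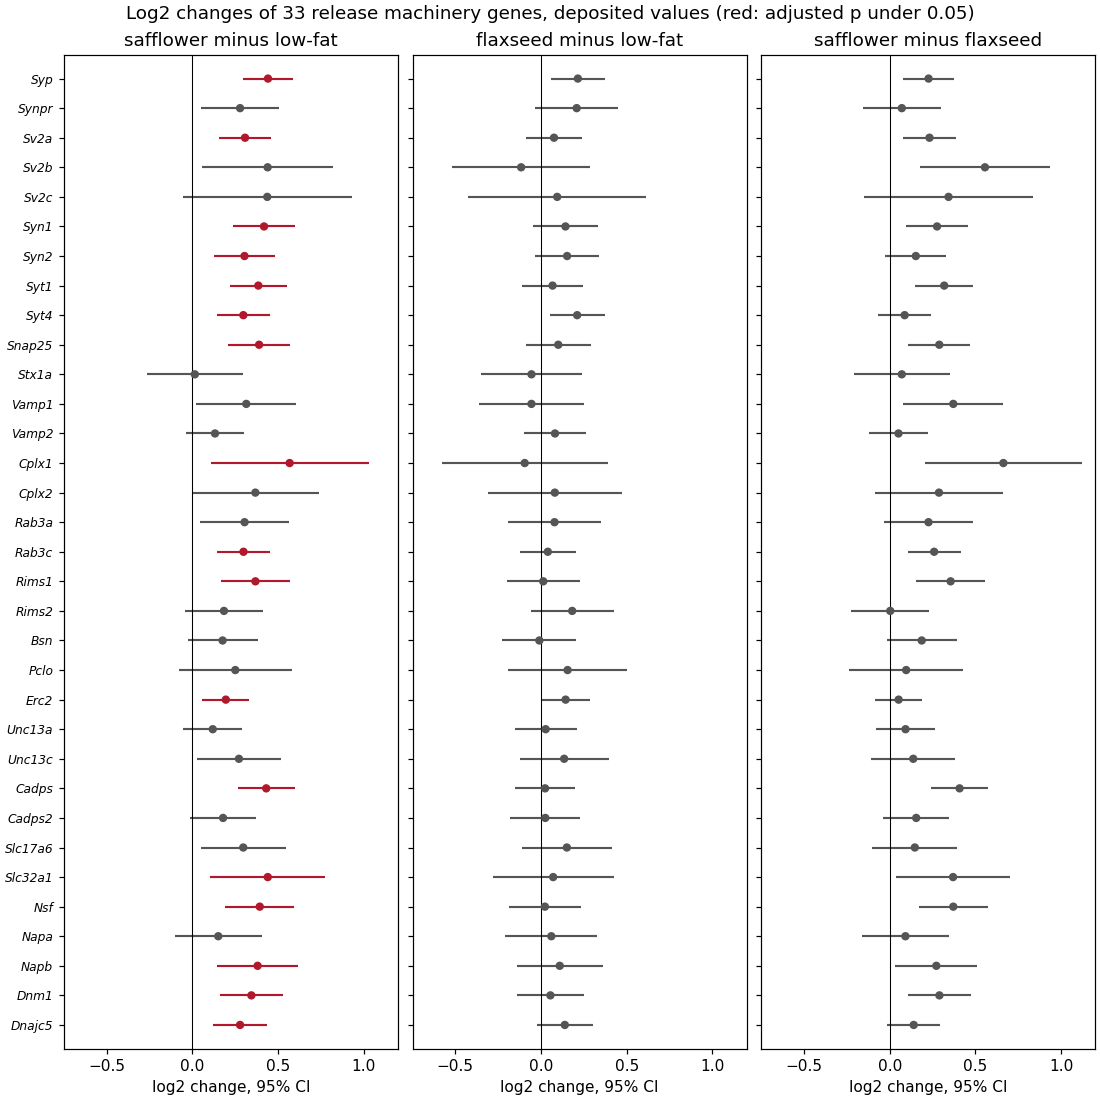
Log2 change with its 95% confidence interval (x axis) for each of the 33 members, ordered by role (y axis), in the 3 diet comparisons on deposited values; red marks an adjusted p under 0.05. In safflower minus low-fat 17 members passed and all 33 changes were positive (27 after quantile normalization of all rows), while none passed in the other comparisons. Of the brightest 4009 genes tested 3791 had a positive change in safflower minus low-fat.

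Among the vesicle membrane proteins, 2 of 5 were higher with safflower. Syp encodes synaptophysin, an abundant integral protein of the synaptic vesicle and a partner of synaptobrevin. Its signals were 11.52, 11.73, 11.42 and 11.44 on low-fat arrays 1 to 4, 11.84, 11.68, 11.67 and 11.76 on flaxseed arrays 1 to 4 and 11.998, 11.95, 11.94, 11.88 and 12.07 on safflower arrays 1 to 5. The safflower arrays were all above every other array, and the flaxseed arrays overlapped the low-fat arrays through low-fat array 2. Syp averaged 11.52 ± 0.14 (SD, n = 4) with low-fat and 11.97 ± 0.07 (SD, n = 5) with safflower, a 1.36-fold rise (0.44 on the log2 scale, SE 0.07, limma adjusted p = 0.00379).

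The other vesicle membrane proteins gave a less even picture. Sv2a, the widespread isoform of synaptic vesicle glycoprotein 2 and the target of the antiepileptic levetiracetam, rose by 0.31 on the log2 scale (SE 0.07, limma adjusted p = 0.00685). Sv2b and Sv2c, its paralogs of more restricted expression, had similar log2 changes of 0.44 each but wide intervals, 0.06 to 0.82 and -0.06 to 0.93, and did not pass. For Sv2b safflower array 5 stood at 9.98, with the other safflower arrays at 9.0 to 9.23. For Sv2c safflower arrays 1 and 3 stood at 10.04 and 10.17, and the other 3 at 8.88 to 9.36. Synpr, which encodes the synaptophysin relative synaptoporin, had a change of 0.28 with an adjusted p of 0.0511.

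Both synapsins, phosphoproteins that tether vesicles to each other and to actin in the reserve pool, were higher with safflower. Syn1 signals were 11.02, 11.18, 10.85 and 10.81 on the low-fat arrays, 11.23, 11.14, 11.01 and 11.05 on the flaxseed arrays and 11.38, 11.47, 11.32, 11.22 and 11.52 on the safflower arrays, each in replicate order. No safflower array overlapped the low-fat arrays, but safflower array 4 lay just below flaxseed array 1. Syn1 averaged 10.97 ± 0.17 (SD, n = 4) with low-fat and 11.38 ± 0.12 (SD, n = 5) with safflower, a 1.34-fold rise (0.42 on the log2 scale, SE 0.08, limma adjusted p = 0.00435). Syn2 rose by 0.30 (SE 0.08, limma adjusted p = 0.0124), with safflower array 4 (10.65) overlapping low-fat array 2 (10.66). After quantile normalization of all rows the Syn2 change turned to -0.03.

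Both synaptotagmins were higher as well. Syt1 encodes the calcium sensor of fast synchronous release. It measured 11.59, 11.80, 11.59 and 11.51 on the low-fat arrays, 11.55, 11.69, 11.71 and 11.82 on the flaxseed arrays and 12.11, 12.08, 11.90, 11.85 and 12.09 on the safflower arrays. All safflower arrays lay above all arrays of the other diets, with safflower arrays 3 and 4 nearest to them. The means were 11.62 ± 0.12 (SD, n = 4) and 12.01 ± 0.12 (SD, n = 5), a 1.31-fold rise (0.38 on the log2 scale, SE 0.08, limma adjusted p = 0.00453). Syt4, a synaptotagmin found on peptide-containing vesicles, including those of oxytocin neurons, rose by 0.30 (SE 0.07, limma adjusted p = 0.00748).

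Of the 4 SNARE proteins only Snap25 passed. It encodes the plasma membrane SNARE that supplies a pair of the helices of the fusion complex and is cleaved by botulinum toxin A. Its signals were 12.10, 12.08, 11.76 and 12.03 on the low-fat arrays, 12.13, 12.02, 12.12 and 12.10 on the flaxseed arrays and 12.50, 12.40, 12.46, 12.12 and 12.43 on the safflower arrays. Safflower array 4 stood apart from the other safflower arrays and fell among the flaxseed arrays, while still above low-fat array 1. Snap25 averaged 11.99 ± 0.16 (SD, n = 4) with low-fat and 12.38 ± 0.15 (SD, n = 5) with safflower, a 1.31-fold rise (0.39 on the log2 scale, SE 0.08, limma adjusted p = 0.00535).

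The partners of SNAP-25 in the complex did not pass. Stx1a, which encodes syntaxin 1A, had a log2 change of 0.01 (95% confidence interval -0.27 to 0.30), with 9.39 on safflower array 5 and 8.72 to 8.84 on the others. Vamp2, the main synaptobrevin of the forebrain, had a change of 0.13 (-0.04 to 0.30), with safflower arrays from 11.47 to 11.74 and low-fat arrays from 11.30 to 11.70. Vamp1, the synaptobrevin that prevails in brainstem and spinal cord, had a change of 0.31 (0.02 to 0.61; adjusted p = 0.0775). Stx1a and Vamp2 turned to -0.11 and -0.02 after quantile normalization of all rows. The interval of Vamp1 holds the Snap25 estimate of 0.39, and the upper bounds of Stx1a and Vamp2 lie below it, although the differences between these genes were not tested.

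The complexins are small proteins that bind the assembled SNARE complex. Cplx1 had the highest log2 change of the 33 members and also the widest spread between low-fat arrays. It measured 11.00, 10.65, 9.92 and 10.34 on the low-fat arrays, 10.14, 10.30, 10.60 and 10.49 on the flaxseed arrays and 11.39, 10.69, 11.42, 10.51 and 11.21 on the safflower arrays. Safflower arrays 1, 3 and 5 were above every other array, whereas safflower arrays 2 and 4 fell within the low-fat range. Cplx1 averaged 10.48 ± 0.46 (SD, n = 4) with low-fat and 11.04 ± 0.42 (SD, n = 5) with safflower, a 1.48-fold rise (0.57 on the log2 scale, SE 0.22, limma adjusted p = 0.0485). This call was lost without any 1 of 9 arrays, at adjusted p up to 0.157. Cplx2 had a change of 0.37 (SE 0.17, adjusted p = 0.102).

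In the group of Rab3 proteins and active zone scaffolds, 3 of 7 passed. Rab3c encodes a small GTPase of the vesicle surface that is recognised by RIM. Its signals were 10.47, 10.53, 10.31 and 10.32 on the low-fat arrays, 10.37, 10.52, 10.32 and 10.58 on the flaxseed arrays and 10.73, 10.84, 10.73, 10.61 and 10.62 on the safflower arrays. No safflower array overlapped either of the other diets. Rab3c averaged 10.41 ± 0.11 (SD, n = 4) with low-fat and 10.71 ± 0.09 (SD, n = 5) with safflower, a 1.23-fold rise (0.30 on the log2 scale, SE 0.07, limma adjusted p = 0.0077). Rab3a, its more widely studied paralog, had almost the same change, 0.30, with a larger SE of 0.12 (adjusted p = 0.0567).

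Among the scaffolds, Rims1, which links Rab3 to Munc13 and to calcium channels, rose by 0.37 (SE 0.09, limma adjusted p = 0.00973). Its safflower arrays ran from 9.37 to 9.81 and its low-fat arrays from 9.11 to 9.23. Erc2, which encodes the CAST scaffold, rose by 0.19 (SE 0.06, limma adjusted p = 0.027) on its brightest row, while the mean of its 3 rows fell by 0.14. The paralog of Rims1, Rims2, and the giant scaffolds Bassoon (Bsn) and Piccolo (Pclo) had changes of 0.18, 0.18 and 0.25 and did not pass, with all their groups overlapping.

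Of 4 priming factors only Cadps passed. Cadps encodes CAPS1, which primes dense-core vesicles that hold neuropeptides and monoamines and also acts at synaptic vesicles. It measured 10.13, 10.23, 10.10 and 9.97 on the low-fat arrays, 10.03, 10.25, 10.02 and 10.22 on the flaxseed arrays and 10.61, 10.49, 10.63, 10.34 and 10.61 on the safflower arrays. Every safflower array was above every array of both other diets, and the flaxseed and low-fat arrays covered nearly the same range. Cadps averaged 10.11 ± 0.10 (SD, n = 4) with low-fat and 10.54 ± 0.13 (SD, n = 5) with safflower, a 1.35-fold rise (0.43 on the log2 scale, SE 0.08, limma adjusted p = 0.00379). Its paralog Cadps2 had a change of 0.18 (adjusted p = 0.125). The Munc13 genes Unc13a and Unc13c, whose products open syntaxin for assembly, had changes of 0.12 and 0.27 (adjusted p = 0.243 and 0.0724). That of Unc13a turned to -0.01 after quantile normalization of all rows.

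The vesicular transporters mark the transmitter a neuron releases. Slc32a1, the transporter of GABA and glycine, measured 9.47, 9.47, 8.96 and 9.16 on the low-fat arrays, 9.32, 9.29, 9.47 and 9.26 on the flaxseed arrays and 10.19, 9.49, 9.84, 9.23 and 9.79 on the safflower arrays. Safflower arrays 1, 3 and 5 were above all other arrays, array 2 was barely above them and array 4 fell in the low-fat range. Slc32a1 averaged 9.27 ± 0.25 (SD, n = 4) with low-fat and 9.71 ± 0.37 (SD, n = 5) with safflower, a 1.36-fold rise (0.44 on the log2 scale, SE 0.16, limma adjusted p = 0.0379). The call was lost without any 1 of 5 arrays, low-fat arrays 3 and 4 and safflower arrays 1, 3 and 5. Slc17a6, the VGLUT2 glutamate transporter that prevails in hypothalamic excitatory neurons, had a change of 0.30 (SE 0.12) and an adjusted p of 0.0536. Its change turned to -0.04 after quantile normalization of all rows. The difference between the changes of Slc32a1 and Slc17a6 was not tested.

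Of the factors that disassemble SNARE complexes and recycle vesicles, 4 of 5 were higher. Nsf encodes the ATPase that pulls spent complexes apart. Its signals were 11.53, 11.52, 11.15 and 11.20 on the low-fat arrays, 11.49, 11.25, 11.33 and 11.42 on the flaxseed arrays and 11.85, 11.78, 11.75, 11.51 and 11.82 on the safflower arrays. Safflower array 4 fell below low-fat arrays 1 and 2, and the other safflower arrays lay above all arrays of both other diets. Nsf averaged 11.35 ± 0.20 (SD, n = 4) with low-fat and 11.74 ± 0.14 (SD, n = 5) with safflower, a 1.31-fold rise (0.39 on the log2 scale, SE 0.09, limma adjusted p = 0.00738).

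Napb, the brain-enriched adaptor of NSF known as beta-SNAP, rose by 0.38 (SE 0.11, limma adjusted p = 0.0169), while the alpha-SNAP gene Napa had a change of 0.15 (adjusted p = 0.319) that turned to -0.05 after quantile normalization of all rows. Dnm1, the neuronal dynamin that cuts endocytic vesicles from the membrane, rose by 0.34 (SE 0.09, limma adjusted p = 0.00871). Dnajc5 encodes cysteine string protein, a vesicle chaperone of SNAP-25, and rose by 0.28 (SE 0.07, limma adjusted p = 0.0107).

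**Figure D3:**
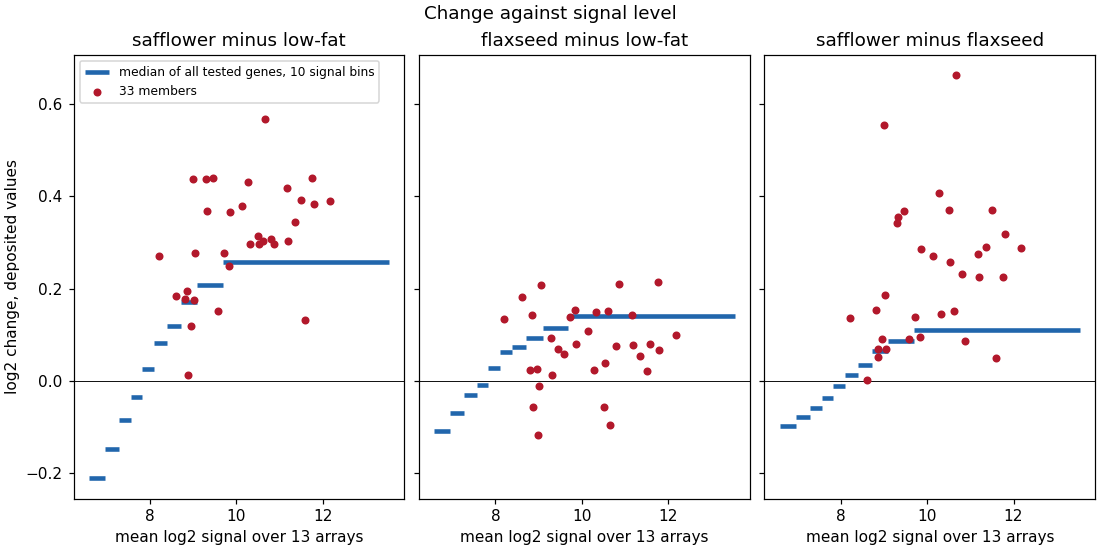
Log2 change (y axis, deposited values) against mean log2 signal over the 13 arrays (x axis) for the 33 members (red points), with the median change of all tested genes in 10 signal bins (blue bars), in each diet comparison. The bin medians rise with signal in all 3 panels, and 28, 10 and 28 of the 33 members lie above the median of their bin in safflower minus low-fat, flaxseed minus low-fat and safflower minus flaxseed.

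The calls depended on how the arrays were scaled. After quantile normalization of all rows no member passed (limma, 2 at an unadjusted p under 0.05), where 10.1% of all genes tested but 2.97% of the brightest 4009 were called higher. The median log2 change of the members was 0.12 and the median SE 0.18, against 0.09 in the deposited values. Syp then had a change of 0.26 (SE 0.25) and Cadps 0.20 (SE 0.11). The 2 members at an unadjusted p under 0.05 were Rims1 (0.20) and Unc13c (0.26). At that level 3409 of the 16033 genes tested were higher, and 434 of the brightest 4009.

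The arrays also differed in bright rows that carry no gene symbol. The table holds 1224 rows with no gene symbol that reached a signal over 11.45, the highest 99th percentile of the tested genes on any array, and varied with an SD over 0.5. Their mean ran from 10.37 on low-fat array 1 to 12.19 on low-fat array 3. The 99th percentile of all rows followed them, from 11.08 to 12.44 over the arrays, while that of the tested genes ran only from 11.08 to 11.45. Quantile normalization of all rows sets this bright end equal on every array. Low-fat array 3 and safflower array 4, where the members were low, were among the arrays on which these rows were brightest (12.19 on both). On flaxseed array 4 these rows stood at 12.17, and the member mean was 10.04, where the flaxseed arrays ran from 10.035 to 10.061. The part of these rows in the members' values and in the larger errors was not tested.

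Quantile normalization of the tested genes alone, chosen after these rows were seen, gave a median SE of 0.09. It left 1 member called (3.03%), against 8.54% of all genes tested and 2.47% of the brightest 4009. That member was Syp, with a log2 change of 0.22 (SE 0.05, limma adjusted p = 0.0142) and no overlap of safflower with low-fat arrays. Cadps kept that separation too, with a change of 0.18 (adjusted p = 0.0797). No overlap was thus found for 2 of the 33 members, against 1132 of the 16033 genes tested and 97 of the brightest 4009. The median over the members was 0.07, and 29 of 33 changes were positive, while Stx1a, Vamp2, Unc13a and Napa were negative. Positive changes were found for 7945 of the 16033 genes tested and 2185 of the brightest 4009. Over all genes tested this scaling called 1369 higher and 2082 lower, against 3675 and 2702 in the deposited values.

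**Figure D4:**
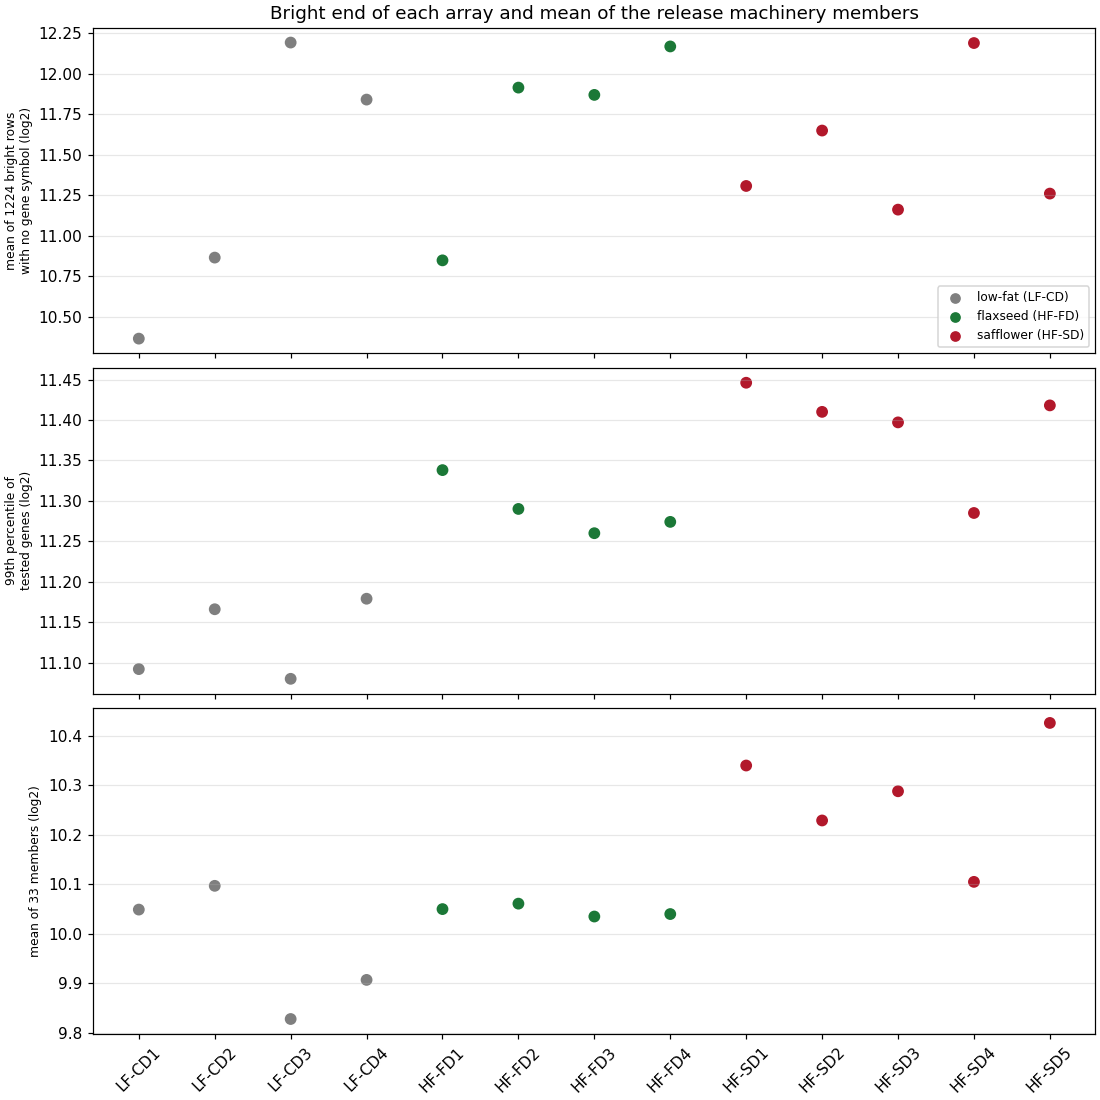
Log2 signal (y axes) on each of the 13 arrays (x axis) as the mean of 1224 bright rows with no gene symbol, the 99th percentile of the tested genes and the mean of the 33 members (deposited values; colours mark the diets). The unnamed rows are brightest on low-fat array 3, flaxseed array 4 and safflower array 4. Low-fat array 3 has the lowest member mean, 9.83, and that of flaxseed array 4 is 10.04.

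**Figure D5:**
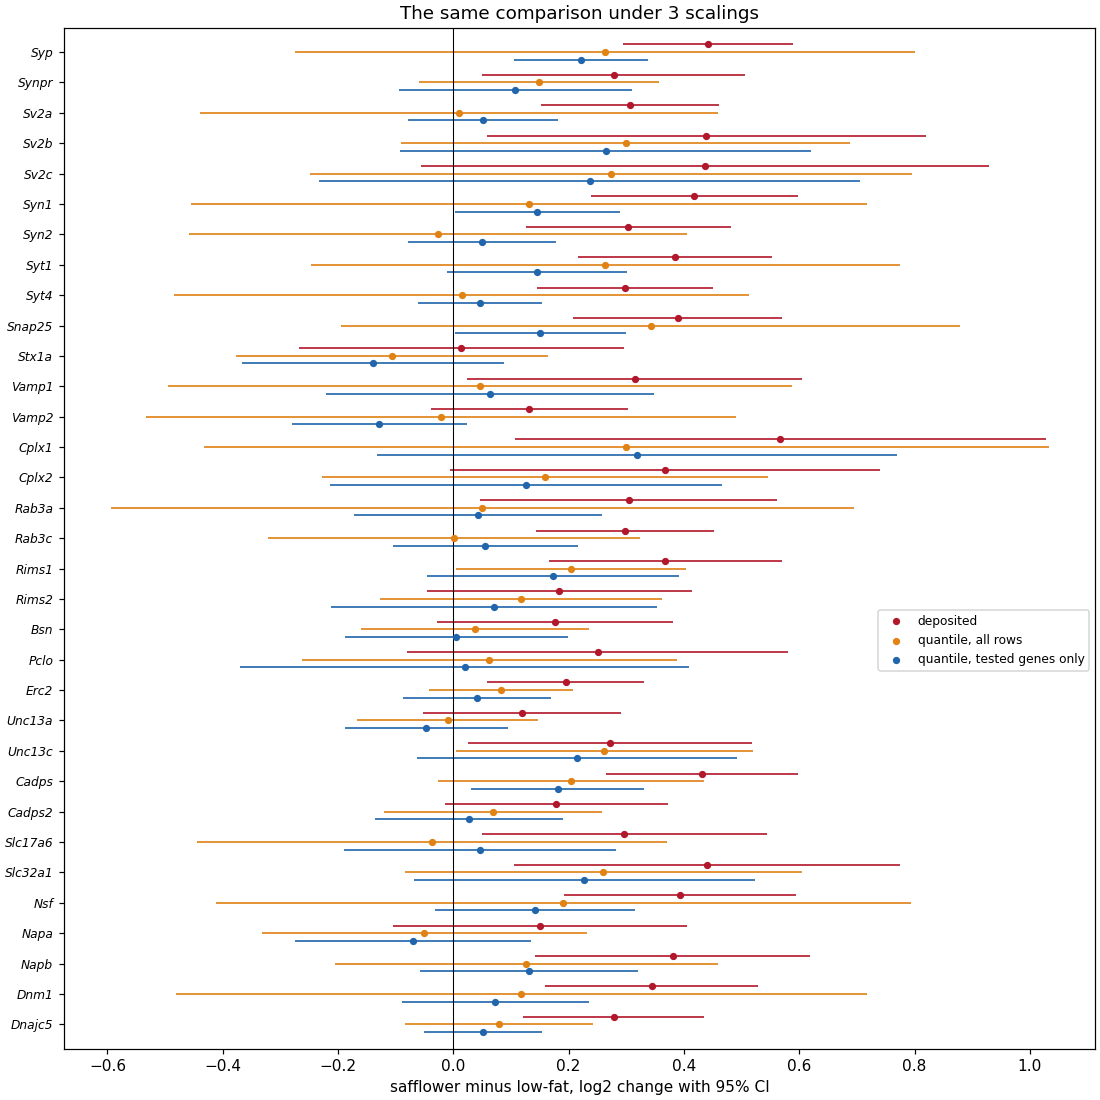
Log2 change for safflower minus low-fat (x axis) with its 95% confidence interval for each of the 33 members (y axis) in the deposited values (red), after quantile normalization of all rows (orange) and of the tested genes alone (blue). Medians over the members are 0.30, 0.12 and 0.07, and 33, 27 and 29 changes are positive. Of the brightest 4009 genes tested 3791, 2457 and 2185 changes are positive.

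The wider release and recycling pathway was listed with 69 further genes, of which 64 were tested. With safflower 23 of the 64 were higher (35.94%) and none lower in the deposited values, between the 22.9% of all genes tested and the 48.1% of the brightest genes. Of the 43 that lie among the brightest genes 21 were higher (48.84%), a share close to that background. The median of the 64 log2 changes was 0.20. After quantile normalization of all rows 3 were higher (4.688%), against 10.1% of all genes tested and 2.97% of the brightest 4009. Of the 43 among the brightest genes 1 was higher (2.326%). In that scaling 1 of the 64 was lower, as were 723 of the 16033 genes tested and 74 of the brightest 4009. After quantile normalization of the tested genes none was higher and 3 were lower. Of all genes tested 2082 were lower there, and 208 of the brightest 4009. Those past the threshold and higher both in the deposited values and after quantile normalization of all rows were Cask and Snapin. Cask, a scaffold kinase that binds neurexin at the active zone, rose by 0.37 (SE 0.07, limma adjusted p = 0.00414), from 9.36 ± 0.09 (SD, n = 4) to 9.73 ± 0.13 (SD, n = 5). Snapin, a SNAP-25 binding protein, rose by 0.29 (SE 0.07, limma adjusted p = 0.00687), from 8.34 ± 0.09 (SD, n = 4) to 8.63 ± 0.13 (SD, n = 5).

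Many markers of neurons were also higher with safflower. In the deposited values 14 of 18 neuron markers outside the release machinery were higher with safflower (77.78%). All 18 lie among the brightest 4009 genes, where 48.1% were called higher. Their median change was 0.30 on the log2 scale, the same as that of the members. Oligodendrocyte and myelin markers (0.34) and endothelial and mural markers (0.36) had larger medians. Astrocyte (0.16), microglial (0.03) and tanycyte and ependymal markers (-0.16) had smaller ones. The log2 of their summed signal ran from 14.74 to 15.04 on the low-fat arrays, 14.94 to 15.04 on the flaxseed arrays and 14.99 to 15.34 on the safflower arrays. Summed in the same way, the 33 members ran from 15.24 to 15.55, 15.46 to 15.51 and 15.56 to 15.85. After quantile normalization of all rows 1 neuron marker passed.

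Markers of other cells moved less evenly, where 22.9% of all genes tested were called higher. Among astrocyte markers 3 of 11 were higher, with a summed level of 13.73 to 13.98 on low-fat and 13.98 to 14.23 on safflower arrays. Among oligodendrocyte and myelin markers 1 of 14 passed with a median change of 0.34, and the sums were 13.71 to 14.00 and 13.79 to 14.43. Endothelial and mural markers had 2 of 9 higher, and their sums ran from 11.58 to 12.35 on low-fat and from 11.79 to 12.62 on safflower arrays. Microglial markers had 1 of 9 higher, with sums of 11.94 to 12.32 and 12.18 to 12.35. The part of cell composition in the changes of the members was not tested.

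Some marker lists had members called lower. Of all 16033 genes tested 2702 were called lower with safflower in the deposited values, and of the brightest 4009 genes 25 were. Of 7 skeletal muscle markers 5 were lower with safflower, and their sum reached 12.87 on 1 low-fat array against 10.55 to 10.94 on the safflower arrays. Pituitary markers had 2 of 4 tested lower, with sums of 10.53 to 11.41 on low-fat and 9.57 to 11.05 on safflower arrays. Tanycyte and ependymal markers had 2 of 9 lower (sums of 11.68 to 11.94 and 11.56 to 11.87), and hypothalamic markers 3 of 16 (13.71 to 14.13 and 13.66 to 14.36). Markers of cortex, striatum and thalamus, which a dissection could include, had 1 of 9 higher and 1 lower (11.34 to 11.93 and 11.76 to 12.04). Olfactory receptor genes, read here as a measure of background signal, had an array median of 5.03 ± 0.08 (SD, n = 4) on low-fat, 4.87 ± 0.05 (SD, n = 4) on flaxseed and 4.75 ± 0.04 (SD, n = 5) on safflower arrays. With that median as a covariate no member passed (11 at an unadjusted p under 0.05 in limma), and its part in the changes was not tested further. The counts over all genes with this covariate are not given here, so these counts cannot be set against them.

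With the flaxseed diet no release machinery transcript differed from the low-fat diet past the threshold. No gene of the 16033 passed either, the smallest limma adjusted p being 0.205. The members' median log2 change was 0.08, against 0.05 over all genes tested and 0.12 over the brightest 4009. In the deposited values 28 of 33 changes were positive, where 9981 of the 16033 genes tested and 3667 of the brightest 4009 were. After quantile normalization of all rows 6 of 33 were positive (8508 of all genes tested, 1849 of the brightest 4009). After that of the tested genes 10 were (7784 of all genes tested, 2080 of the brightest 4009). Syp (0.21, 95% confidence interval 0.06 to 0.37) and Syt4 (0.21, 0.05 to 0.37) had an unadjusted p under 0.05, which is 6.061% of the members, where 12.9% of all genes tested and 24.4% of the brightest 4009 were higher at that level. Cadps and Nsf had changes of 0.02 each, with intervals of -0.15 to 0.20 and -0.19 to 0.23. Synpr was the single member whose flaxseed arrays (8.99 to 9.21) all lay above its low-fat arrays (8.79 to 8.98). The same separation was found for 942 of the 16033 genes tested and 475 of the brightest 4009.

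Several flaxseed changes were at or below 0. Cplx1 had a log2 change of -0.10 (-0.58 to 0.39), Sv2b -0.12 (-0.52 to 0.28), Stx1a and Vamp1 -0.06 each and Bsn -0.01.

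Between the high-fat diets, which supply equal fat from different oils, no member passed the threshold, nor did any other gene (smallest limma adjusted p = 0.246). All 33 log2 changes for safflower minus flaxseed were positive, with a median of 0.23 against 0.003 over all genes tested. Positive changes were found for 8140 of the 16033 genes tested and 3234 of the brightest 4009. After quantile normalization of all rows and of the tested genes 32 and 26 members were positive. After those scalings 9108 and 7511 of all genes tested were positive, and 2550 and 1946 of the brightest 4009. At an unadjusted p under 0.05, 15 members were higher (45.45%), against 8.77% of all genes tested. Changes ran with signal here too. Of the brightest 4009 genes 20% were higher at that level, with a median log2 change of 0.09, and of the 28 members among them 15 were (53.57%), with a median of 0.27. All safflower arrays lay above all flaxseed arrays for 7 members (21.21%), against 2.2% of all genes tested. All 7 are among the 28 bright members (25%), where the share of the brightest 4009 genes was 4.69%. These were Syp, Sv2a, Sv2b, Syt1, Rab3c, Cadps and Nsf. After the same quantile scalings 4 and 10 members were higher at an unadjusted p under 0.05. At that level 992 and 1000 of the 16033 genes tested were higher, and 240 and 263 of the brightest 4009.

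Cadps had the smallest p of the members between the oils. Its log2 change was 0.41 (95% confidence interval 0.24 to 0.57, limma adjusted p = 0.246), and it was 0.38 and 0.29 after quantile normalization of all rows and of the tested genes. Syt1 had a change of 0.32 (0.15 to 0.49) and Nsf 0.37 (0.17 to 0.57). Cplx1 had the highest change, 0.66 (0.20 to 1.12), with safflower array 4 (10.51) inside the flaxseed range. Rims2 had the lowest, at 0.003 (-0.23 to 0.23). Without safflower array 4 Cadps, Nsf and Snap25 passed, at adjusted p of 0.0434, 0.0494 and 0.0494. That array had the lowest safflower signal for 23 of the members, so leaving it out raises their safflower means. The count over all genes without it is not given here, so these calls cannot be set against a background.

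The members differed in how tightly their arrays agreed. Within diets the SD of log2 signal ran from 0.05 (Rims1) to 0.46 (Cplx1) on the low-fat arrays, from 0.05 (Snap25) to 0.29 (Unc13c) on the flaxseed arrays and from 0.07 (Syp) to 0.55 (Sv2c) on the safflower arrays. The median SD over the members was 0.17, 0.12 and 0.15, against 0.13, 0.10 and 0.09 over all genes tested. A group of members, picked here after their values were seen, was high on safflower arrays 1 and 3 and low on array 4. On those 3 arrays Sv2c measured 10.04, 10.17 and 8.88, Vamp1 10.92, 11.07 and 10.33, and Slc32a1 10.19, 9.84 and 9.23. By contrast Pclo measured 9.78, 9.59 and 10.21 and Rims2 8.60, 8.50 and 8.96 on the same arrays. Array 4 was thus the lowest safflower array for the first 3 genes and the highest for Pclo and Rims2.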

How the data were processed

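Each of 13 Affymetrix arrays measured 100 ng of hypothalamic total RNA from male rats. The authors deposited 1 log2 signal per array for 70580 rows; per the submitters' processing notes, RMA, Affymetrix Expression Console and the Transcriptome Analysis Console were used. Log2 values ran from 1.99 to 14.46 and were not centred by row. The sources used here give no genome build for the rows. Diets were taken from the labels, which do not state whether an array holds a single rat, so p-values measure the spread between these samples, which may be technical. The number of arrays limits the precision, and no 2 arrays correlated above 0.997.

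Of the rows, 1738 were controls, 23446 had 1 gene symbol, 505 several and 44891 none. Only rows with 1 symbol were used, with the brightest row for the 1182 genes that had several (4 members). Genes with a mean signal of at least 6.58, the median over rows, were tested. Diet means were fitted to all 13 arrays with limma 3.58.1 in R 4.3.3 (lmFit, eBayes, 10 residual degrees of freedom), with two-sided tests, Benjamini-Hochberg adjustment over 16033 genes and a threshold of 0.05. The fit was tested on simulated data. Deposited values were the main setting, beside quantile normalization of all rows and, added after the data were seen, of the tested genes alone. Further alternatives are given in the closing section.

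All 33 members are named. Values on every array are given for the member with the smallest p of each of 9 roles in safflower minus low-fat. Of other pathway genes, those past the threshold with both the deposited and the quantile-normalized values are named. The members and lists were chosen with earlier results of these data known. Promoters come from RefSeq (GRCr8). Replicate numbers of the titles were not used to pair the arrays in the main fit. The correlations of same-numbered arrays' deviations from their diet means ran from -0.264 to 0.433, with 7 of 12 above 0.1. Arrays of different numbers were not compared in this way, so these values cannot settle whether the numbers pair the arrays.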

Additional observations from a re-analysis of the deposited data

Results flagged for a closer look

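In 8 of 99 groups (33 members on 3 diets) 1 array stood apart from the others of its diet by more than Dixon's critical value, where chance gives about 1 in 20 groups. Safflower array 5 was high for Sv2b (9.98, the others 9.0 to 9.23), Stx1a (9.39, the others 8.72 to 8.84) and Unc13a (9.32, the others 8.92 to 9.01). Safflower array 4 was low for Snap25 (12.12, the others 12.40 to 12.50) and Nsf (11.51, the others 11.75 to 11.85). Flaxseed array 1 was high for Rab3a (11.3, the others 11.06 to 11.08) and low for Rims2 (8.45, the others 8.71 to 8.74) and Unc13c (7.76, the others 8.31 to 8.39). None of these values was left out of the reported tests.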

How the results depend on the processing

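The count of 17 members higher with safflower than low-fat was 0 after quantile normalization of all rows, 0 with cyclic loess, 1 after quantile normalization of the tested genes, 0 with the olfactory receptor median as a covariate, 32 after median centring (which moved the median change of all genes from 0.07 to 0.28) and 26 with the mean of the bright unnamed rows as a covariate. It was 19 without the signal filter, 16 with the mean over a gene's rows, 16 with the 2 diets alone, 23 with array weights, 21 without low-fat array 3 and safflower array 4 together, 16 with the replicate block and 14 to 24 without single arrays. The block left the count of calls at 0 in the other comparisons, and 30 of 33 changes were positive for safflower minus flaxseed with it, against 33 without. Of the 17, 14 stayed called without each single array, and Cplx1, Slc32a1 and Erc2 did not, Erc2 without low-fat array 1 or safflower array 5. With the mean over a gene's rows, 1 member was lower, Erc2, which turned to -0.14. Erc2 also turned to -0.0498 with the olfactory covariate, and Syn2 to -0.027 after quantile normalization of all rows. For flaxseed minus low-fat, array weights gave 1 member higher and leaving out single arrays gave 0 to 0. For safflower minus flaxseed the count of 0 was 21 with array weights, 7 without low-fat array 3 and safflower array 4, and 0 to 3 without single arrays (3 without safflower array 4). With quantile-normalized values the count for safflower minus low-fat was 0 to 1 without single arrays (1 without flaxseed array 1). Array weights ran from 0.244 (low-fat array 3) to 3.81 (flaxseed array 2). The counts under these settings are of members. Over all genes tested, 3675 were higher for safflower minus low-fat in the deposited values. After quantile normalization of all rows 1621 were, and after that of the tested genes 1369. For the other settings the share over all genes is not given here. There a change in the members' count cannot be told apart from a change over all genes. The cause of the differences between settings was not tested. The tested-gene quantile scaling, the bright-row covariate and leaving out both arrays were chosen after seeing the data.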

Other observations

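The array carries 3 rows for Erc2, and they did not move together. In a fit of 16781 rows, the row with a mean signal of 8.85 had a log2 change of 0.19 for safflower minus low-fat (SE 0.06, limma adjusted p = 0.0273), the row at 8.01 a change of -0.32 (SE 0.09, adjusted p = 0.0168) and the row at 6.65 a change of -0.30 (SE 0.05, adjusted p = 0.00383). Further rows also exist for Synpr, Syt1 and Unc13a, with mean signals of 4.95, 3.83 and 6.06, and log2 changes of -0.40, -0.03 and -0.25. The identifier of the second Unc13a row places it on chromosome 12 and that of the first on chromosome 16, so whether both read the same gene is unsure.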
